A study of Mus musculus with 18 samples.

Results

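Peaks of methylated DNA were examined at the mouse olfactory receptor genes (symbols beginning with Olfr) and at both families of vomeronasal receptor genes (Vmn1r and Vmn2r) in heart tissue after myocardial infarction (MI). The deposited peak lists of 18 libraries were merged where peaks overlapped by at least 1 base, which gave 152196 regions, 148111 of them on autosomes. A merged autosomal region was kept when it lay within 2000 bases of the span of a receptor gene. This left 352 receptor regions, 0.238% of the autosomal regions: 274 at Olfr genes, 15 at Vmn1r genes and 63 at Vmn2r genes. The 3 families have 1777 autosomal genes in the gene table, namely 1420 Olfr, 232 Vmn1r and 125 Vmn2r genes. The genes were chosen by symbol, not by a measured value, although results of these data were known when the set was drawn up. The label calls these regions by the genes they lie at, and no marker check applies to it.

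The assay was methylated DNA immunoprecipitation sequencing (MeDIP-seq), in which an antibody against methylated cytosine pulls down sheared DNA before sequencing. The mice were 12-week-old C57BL/6JR males. In 5 groups the left anterior descending coronary artery was tied, and heart tissue was taken after 10 min, after 1 h, after 6 h, after 24 h or after 72 h. Sham mice were operated on in the same way with a suture that was not tied. All mice, sham included, had sodium pentobarbital, and isoflurane before the end point. Each group held 3 mice with 1 library each. The labels speak of myocardial tissue and of cardiomyocytes but describe no isolation of cells, so the share of other heart cells in each library is not known. No marker of a cell type can be read from methylation peaks here. The labels name no batch. The lists held 34255 to 60653 peaks per library, and no read counts were used, so the depth of each library is not known.

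Olfactory receptors are G protein-coupled receptors of the nose, and each olfactory sensory neuron expresses a single allele of a single gene of the family. Vmn1r and Vmn2r receptors serve the sensory neurons of the vomeronasal organ, which detects pheromones; Vmn2r receptors have a long extracellular part and several coding exons, while the coding sequence of an Olfr or Vmn1r gene usually lies in a single exon. The genes sit in large clusters and, apart from a few, are not expressed in heart. MeDIP depends on methylated CpG, a cytosine followed by a guanine, so a stretch with few CpG can give little signal whatever its methylation.

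Windows of 300 bases, from 250 bases before to 50 after the annotated start, are called promoters in the RefSeq table and in what follows. For 78.6% of protein-coding Olfr and 87.0% of Vmn1r genes the annotated length is a multiple of 3, so the annotated start is often the first coding base, and such a window is then not the stretch around the start of transcription. RefSeq promoter sequences of GRCm38.p6 were matched for 1258 of the 1777 genes (1263 windows). The first 3 sequences are those of the receptor promoters touched by a peak in all 18 libraries. They lie at Olfr283 (chr15:98379148-98379447, minus strand), Olfr281 (chr15:98456062-98456361, plus strand) and Olfr324 (chr11:58597095-58597394, plus strand). The other 3 were touched by no peak in any library and hold the most CpG among such promoters of their family. They lie at Olfr212 (chr6:116506266-116506565), Vmn1r54 (chr6:90268856-90269155) and Vmn2r1 (chr3:64081392-64081691), all on the plus strand. Capitals mark each CG dinucleotide.
Olfr283: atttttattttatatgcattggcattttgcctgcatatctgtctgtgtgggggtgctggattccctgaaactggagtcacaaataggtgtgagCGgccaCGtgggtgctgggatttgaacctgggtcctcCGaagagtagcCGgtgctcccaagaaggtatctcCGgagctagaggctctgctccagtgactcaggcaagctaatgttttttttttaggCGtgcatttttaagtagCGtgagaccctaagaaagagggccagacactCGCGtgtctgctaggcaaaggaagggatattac
Olfr281: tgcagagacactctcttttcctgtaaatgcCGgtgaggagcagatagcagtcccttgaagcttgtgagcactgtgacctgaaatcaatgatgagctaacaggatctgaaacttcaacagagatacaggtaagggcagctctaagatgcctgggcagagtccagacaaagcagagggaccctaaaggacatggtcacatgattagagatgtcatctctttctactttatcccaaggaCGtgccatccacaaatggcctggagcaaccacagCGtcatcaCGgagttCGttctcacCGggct
Olfr324: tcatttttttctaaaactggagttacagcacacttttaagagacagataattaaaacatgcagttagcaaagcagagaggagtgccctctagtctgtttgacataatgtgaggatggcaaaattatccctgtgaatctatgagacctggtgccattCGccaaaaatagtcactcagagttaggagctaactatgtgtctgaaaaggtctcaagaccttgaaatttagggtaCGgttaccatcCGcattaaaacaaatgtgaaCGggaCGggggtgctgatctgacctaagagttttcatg
Olfr212: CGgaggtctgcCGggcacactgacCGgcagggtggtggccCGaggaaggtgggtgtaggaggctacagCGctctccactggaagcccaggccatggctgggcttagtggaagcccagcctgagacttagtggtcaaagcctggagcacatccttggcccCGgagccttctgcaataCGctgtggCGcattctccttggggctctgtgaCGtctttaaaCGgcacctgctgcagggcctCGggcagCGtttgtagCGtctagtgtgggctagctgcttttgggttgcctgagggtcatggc
Vmn1r54: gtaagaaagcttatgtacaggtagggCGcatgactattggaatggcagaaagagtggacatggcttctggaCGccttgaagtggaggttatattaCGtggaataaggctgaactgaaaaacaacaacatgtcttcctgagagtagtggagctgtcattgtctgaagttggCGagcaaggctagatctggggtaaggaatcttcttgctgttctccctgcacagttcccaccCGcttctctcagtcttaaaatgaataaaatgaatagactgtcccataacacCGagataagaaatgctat
Vmn2r1: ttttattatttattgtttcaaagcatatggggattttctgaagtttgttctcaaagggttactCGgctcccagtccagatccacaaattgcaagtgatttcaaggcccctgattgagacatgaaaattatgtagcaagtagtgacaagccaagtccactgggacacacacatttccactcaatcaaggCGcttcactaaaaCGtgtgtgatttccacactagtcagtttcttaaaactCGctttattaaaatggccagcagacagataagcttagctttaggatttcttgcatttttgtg

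The windows of Olfr283, Olfr281 and Olfr324 held 9, 6 and 5 CpG. Those of Olfr212, Vmn1r54 and Vmn2r1 held 13, 6 and 4, and were picked for having many CpG and no peak. In Olfr281, 4 of the 6 CpG lay in the 50 bases after the annotated start; in Olfr283 2 of 9 and in Olfr324 2 of 5 did. CG was searched as these 2 letters, which read the same on both strands, and a match is a description of the sequence, not a measured methylated site.

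Receptor promoters had a median of 1 CpG, against 15 in the 18822 promoters of other protein-coding genes, whose annotated starts are of another kind where the receptor model begins at the coding sequence. No CpG was present in 31.1% of receptor promoters and in 2.61% of the others. At least 4 CpG were present in 6.41% of receptor promoters (81) and in 81.7% of the others. The share of promoters touched by a peak was 1.57% ± 0.339 (SD, n = 18 libraries) for receptors and 1.67% ± 0.322 for the others, with no test made.

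The families were unlike each other at their promoters. Olfr promoters were touched in 2.08% ± 0.461 of cases, Vmn1r promoters in 0.0813% ± 0.187 and Vmn2r promoters in 0.0958% ± 0.279. Only 1 of 205 Vmn1r promoters, that of Vmn1r65, had a peak in any library; it had one in 3 libraries, 1 at 10 min and 2 at 6 h. Only 1 of 116 Vmn2r promoters had a peak, that of Vmn2r29, with 23 CpG and a peak in 2 libraries. Of the vomeronasal promoters, 55.1% for Vmn1r and 62.9% for Vmn2r share a run of 50 bases with another promoter of the table, against 13.7% for Olfr and 6.48% for other protein-coding genes. How reads that map to several copies were handled is not given in the sources used here, so a low value at a Vmn1r or Vmn2r gene may be uncertain for that gene and the part of shared sequence in these values was not tested. Of the Vmn1r promoters with such a run, 0 of 113 were touched by a peak in any library, against 0.181% on average of those without. For Vmn2r it was 0 of 73 against 0.258%. Among Olfr promoters the values were 2.33% and 2.04%, and over all receptors 0.952% and 1.78%. The pooled values mix the families: of 315 receptor promoters with a run, 113 are Vmn1r and 73 Vmn2r. Each vomeronasal contrast rests on 1 touched promoter.

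Within the Olfr family the share of promoters with a peak was higher in each class with more CpG, up to the class of 9 to 12. It was 0.264% at 0 CpG, 0.776% at 1, 1.64% at 2 and 3.63% at 3. It reached 12.2% ± 4.28 (44 promoters) at 4 to 5 CpG and 26.0% ± 6.52 (16 promoters) at 6 to 8. In other protein-coding genes the same classes gave 2.98% ± 0.691 and 5.04% ± 1.08, and promoters with at least 13 CpG gave 0.533%. Above 8 CpG only 3 Olfr promoters remained: Olfr283 with a peak in all 18 libraries, Olfr750 with 11 CpG and a peak in 4, and Olfr212 with none. These are shares of promoters in the same 18 libraries, and classes with few promoters rest on single genes.

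**Figure D1:**
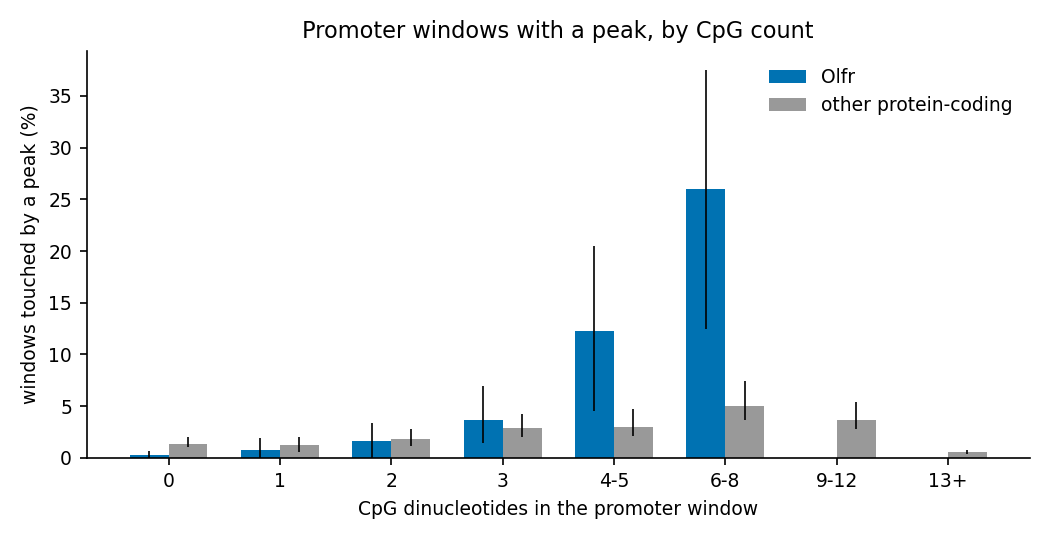
Share of promoter windows touched by a peak (vertical axis, %) by the number of CpG in the window (horizontal axis) for Olfr genes (blue) and other protein-coding genes (grey). Bars are means over 18 libraries, lines run from the lowest to the highest library, and classes with fewer than 10 promoters are left out; the Olfr bars stand at 12.2% and 26.0% for 4 to 5 and 6 to 8 CpG.

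The first comparison asked how much of the receptor genes lies under peaks. Coverage was taken as the percentage of bases under peaks in the merged gene spans with 2000 bases on each side. Over the 18 libraries, receptor coverage ran from 0.852% through a median of 0.975% to 1.17%, with a mean of 0.982% ± 0.0944. Coverage of all 20665 protein-coding genes ran from 1.83% through 2.22% to 2.95%, with a mean of 2.31% ± 0.327. Every library had lower coverage at the receptors, and the ranges did not overlap. The mean difference was -1.32 percentage points (two-sided sign-flip permutation test over 18 libraries, adjusted p = 1e-05 over 4 sets, the smallest that 100000 resamples can give). This test and the family tests below resample libraries that all read the same genes. Their p therefore measures agreement between libraries, not the spread over genes or clusters.

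Each family was below the protein-coding genes in 18 of 18 libraries. Olfr genes had 1.15% ± 0.131 of their windows under peaks, between 0.962% and 1.41%. Vmn2r genes had 0.868% ± 0.0925, between 0.670% and 1.03%. Vmn1r genes had 0.293% ± 0.0929, between 0.156% and 0.532%, and were the least covered family in every library. The permutation tests against protein-coding genes gave adjusted p = 1e-05 for each family.

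The order of the families held in every library. Olfr exceeded Vmn2r by 0.280 percentage points and Vmn1r by 0.856, and Vmn2r exceeded Vmn1r by 0.576, each in 18 of 18 libraries (sign-flip permutation test, adjusted p = 1e-05 over 3 pairs). With only peaks scoring at least 72.1, the median over all lists, the difference between Olfr and Vmn2r was 0.0524 percentage points and did not pass the test (permutation p = 0.110). The other pairs passed under that setting as well. Without the 3 Olfr clusters of highest coverage, which are named below, Olfr had 0.927% ± 0.112. Vmn2r, from which no cluster was taken out, had 0.868% ± 0.0925. The 3 clusters were chosen by their high coverage and all were Olfr, so the gap had to shrink. The remaining gap was not tested. Without flanks, the gene spans alone were covered at 1.94% for Olfr, 0.454% for Vmn1r, 0.908% for Vmn2r and 2.34% for protein-coding genes.

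**Figure D2:**
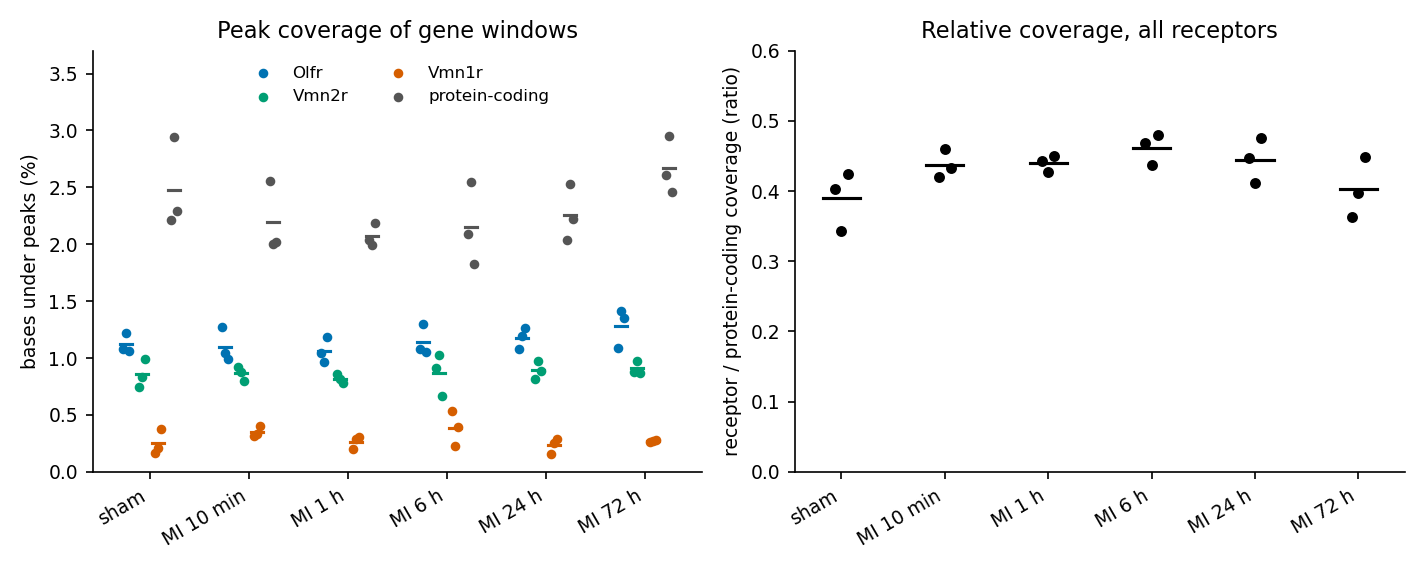
Left, bases under peaks (%) in gene windows of Olfr, Vmn2r, Vmn1r and protein-coding genes; right, ratio of receptor to protein-coding coverage in the same library. Points are libraries, 3 in each group on the horizontal axis, and short lines are group means; all receptor points on the left lie below all protein-coding points, and the ratios lie between 0.343 and 0.480.

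Merged regions were also thinner on the ground. Receptor windows held 27.0 regions per Mb, with 34.4 for Olfr, 11.5 for Vmn1r and 16.8 for Vmn2r, against 75.1 for protein-coding genes. No peak of any library lay in the windows of 1475 of the 1777 receptor genes (83.0%). The figure was 82.7% for Olfr, 94.4% for Vmn1r and 64.8% for Vmn2r. Of other protein-coding genes 17.2% had no peak, but their median span was 19554 bases against 945 for the receptors, so these shares are not of equal windows. The median coverage over genes was 0% for receptors and 1.92% for other protein-coding genes. Only 6 receptor regions also lay at another protein-coding gene, and with the windows of such genes taken out receptor coverage was 0.977% ± 0.0921.

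The position of peaks along the gene differed by family. Around the annotated starts of 942 Olfr promoter entries, coverage was 0.192% from 1000 to 750 bases before the start. It was 3.27% between 250 and 750 bases after the start, with no library below 2.47% there. From 1250 to 1500 bases after the start it was 0.885%. Where the annotated start is the first coding base, this covered stretch lies over the coding sequence. Vmn1r starts were covered at 0.217% at most within 1000 bases after the start and Vmn2r starts at 0.0958%. Vmn2r coverage stood at 1.61% from 1750 to 1500 bases before the start. Other protein-coding genes had their low point, 1.15%, between 500 and 250 bases before the start. From 250 to 500 and from 500 to 750 bases after the start they had 1.63% and 1.72%. No library was above 2.32% there, so Olfr coverage was higher at these positions in every library.

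**Figure D3:**
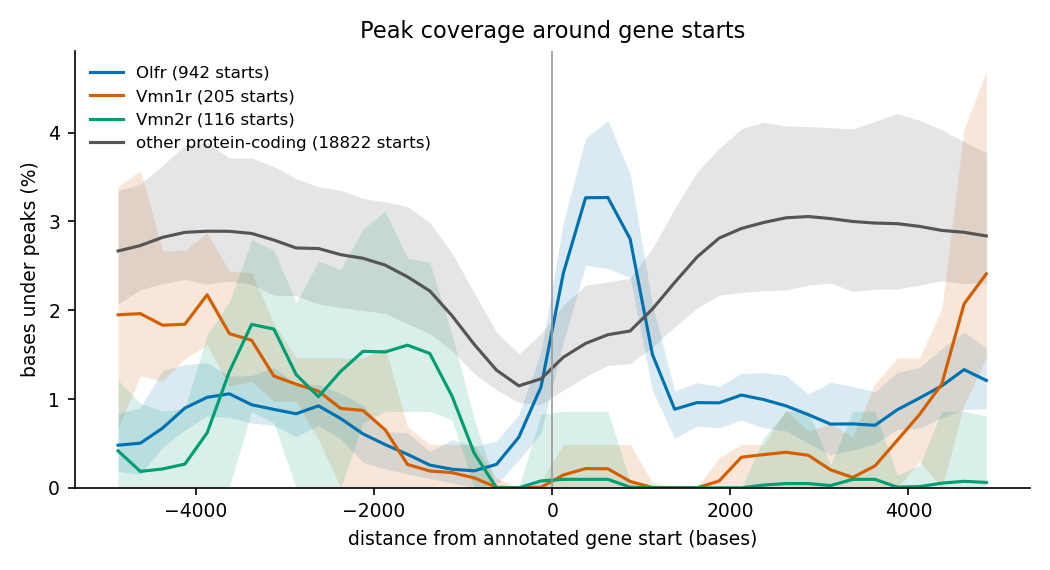
Bases under peaks (%) by distance from the annotated gene start, in steps of 250 bases, negative values lying before the start. Lines are means over 18 libraries and shading runs from the lowest to the highest library; the Olfr line reaches 3.27% within the first 1000 bases after the start, where the Vmn1r and Vmn2r lines stay near 0.

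Protein-coding Olfr genes and Olfr pseudogenes were compared next. With flanks, they were covered at 1.15% ± 0.128 and 1.14% ± 0.210, and pseudogenes were higher in 9 of 18 libraries. Over the gene span alone, protein-coding Olfr genes had 2.07% ± 0.311 (1.56% to 2.65%). Pseudogenes had 1.09% ± 0.304 (0.321% to 1.67%) and were higher in 0 of 18 libraries. The 1104 protein-coding genes and 315 pseudogenes had median spans of 950 and 907 bases. These differences are given without a test.

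Receptor genes were grouped into clusters when genes of a family followed each other with gaps of at most 1000000 bases. This gave 96 clusters, of which 34 held at least 10 genes and together 1602 genes (90.2%). Of the 34, 31 had mean coverage below the protein-coding mean, and 28 were below in every library. Their median coverage was 0.608%. All 7 Vmn1r and all 4 Vmn2r clusters of this size were below the protein-coding mean, as were 20 of 23 Olfr clusters.

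The largest clusters differed several-fold in coverage. The largest, with 293 genes from Olfr987 to Olfr1274 (chr2:85330967-90401674), had 0.578% ± 0.112, between 0.376% and 0.792%. The cluster from Olfr543 to Olfr692 on chromosome 7 (158 genes) had 1.83% ± 0.337, and that from Olfr160 to Olfr986 on chromosome 9 (127 genes) 1.13% ± 0.197. The cluster from Olfr1417 to Olfr1505 on chromosome 19 (91 genes) had 0.442% ± 0.120. The lowest of the 5 was the Vmn1r cluster from Vmn1r91 to Vmn1r183 (86 genes, chr7:20101158-24055691), at 0.0784% ± 0.0583 and no higher than 0.156% in any library. All 5 were below the protein-coding genes in every library.

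At the upper end stood 3 Olfr clusters. The small cluster from Olfr288 to Olfr278-ps1 (12 genes, chr15:98186011-98499471) had 10.4% ± 1.69, from 8.06% to 14.4%. The cluster from Olfr30 to Olfr225 (26 genes, chr11:58454915-59614225) had 5.86% ± 1.24, from 3.42% to 8.73%. Both exceeded the protein-coding genes in all 18 libraries. The cluster from Olfr1396 to Olfr1380 (19 genes, chr11:49112777-49564858) had 2.75% ± 0.740 and was below them in 4 libraries. These 3 clusters were chosen by their values; without them, receptor coverage was 0.844% ± 0.0825 and still below protein-coding genes in 18 of 18 libraries. No region of the chromosome 15 cluster lay at another protein-coding gene, while 2 of 17 and 1 of 11 did in the chromosome 11 clusters.

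At the lower end, the 14 genes from Vmn1r224 to Vmn1r237 (chr17:20419163-21314886) had no peak in any library. The cluster from Vmn1r40 to Vmn1r54 had 0.0515% ± 0.0838 and that from Olfr310 to Olfr292 had 0.0542% ± 0.230. In the latter, the covered bases came from 1 merged region, in 1 library at 6 h (0.976%). A missing peak shows only that the caller's threshold was not passed.

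**Figure D4:**
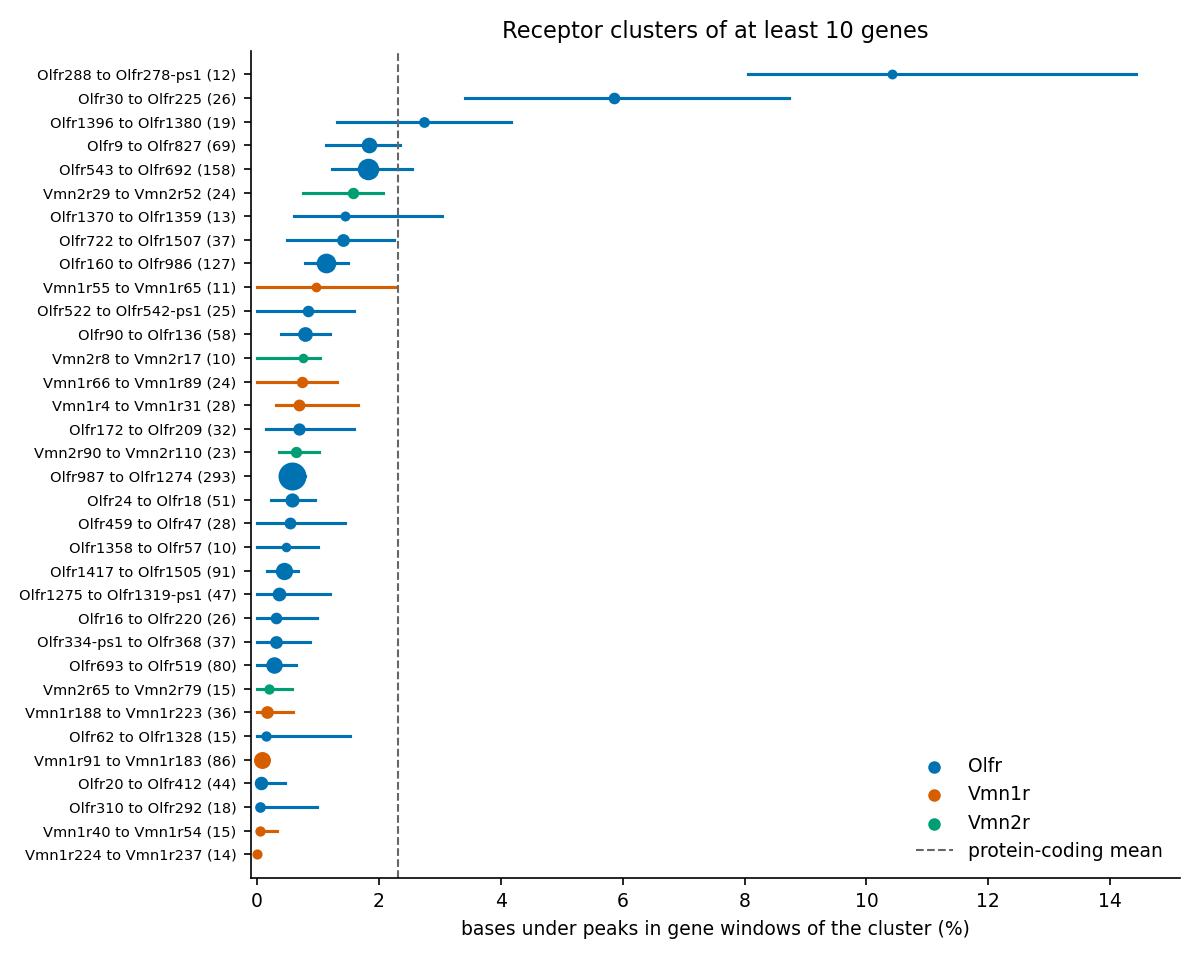
Bases under peaks (%) in the gene windows of the 34 clusters of at least 10 genes, named by their first and last gene with the number of genes in brackets. Points are means over 18 libraries, sized by gene number, lines run from the lowest to the highest library, and the dashed line is the protein-coding mean of 2.31%; 3 Olfr clusters lie above it.

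Gene windows, flanks included, were less covered than the rest of the cluster spans. That rest, called between genes here, can hold other genes, including receptor genes of another family, which were not taken out. In the 34 clusters, the DNA between the gene windows had 1.91% ± 0.154 under peaks and the gene windows 0.946% ± 0.0938, lower in 18 of 18 libraries. The gap was widest for Vmn1r, at 2.40% ± 0.215 between genes and 0.322% ± 0.102 in gene windows. For Vmn2r the values were 1.79% and 0.864%, and for Olfr 1.73% and 1.07%. Without flanks, the spans of all 1420 Olfr genes had 1.94% under peaks. In the Vmn1r91 to Vmn1r183 cluster, the rest of the span had 3.38% under peaks, against 0.0784% in the gene windows. In 5 of the 34 clusters, all Olfr, the gene windows had the higher mean: the 3 clusters at the upper end, that from Olfr160 to Olfr986 (0.941% between genes) and that from Olfr9 to Olfr827 (1.62% and 1.84%). The chromosome 15 cluster had 1.90% between genes and 10.4% in gene windows. These values were not tested, and the CpG content between genes was not analysed here.

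Single genes were ranked by mean coverage of the gene span with its flanks. The highest value was that of the pseudogene Olfr1544-ps1 (chr10:129925115-129925417), at 51.3% ± 8.08. Next came Olfr1055 on chromosome 2 (40.7% ± 9.78) and Olfr283 on chromosome 15 (40.1% ± 4.07). Olfr324 (33.0%), Olfr281 (32.7%) and Olfr784 (28.7%) followed, then Olfr928-ps1 (28.0%), Olfr1388 (27.0%), Olfr1075-ps1 (25.6%) and Olfr761 (25.2%). All 10 are Olfr genes or pseudogenes, and 9 had a peak in all 18 libraries. Olfr1075-ps1 lacked one in 1 library at 1 h. Olfr genes are 1420 of the 1777, and a peak fills a smaller share of a long gene. Median spans were 945 bases for Olfr and 24544 for Vmn2r genes, so the ranking favours short genes. In Olfr928-ps1, Olfr1388, Olfr1075-ps1 and Olfr761 no peak touched the gene span itself, so the covered bases were all in the flanks. A peak in all 18 libraries was found at 33 receptor genes (1.86%) and at 21.5% of other protein-coding genes.

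Some olfactory receptors are known outside the nose, and they were not alike. Olfr78, a receptor of blood vessels, kidney and carotid body that responds to short-chain fatty acids, had no peak in any library. Olfr1393, a kidney receptor, had 1.51% ± 1.15 and a peak in 12 libraries: 2 of 3 sham, 2, 0, 3, 2 and 3 of 3 from 10 min to 72 h. Olfr544 had a peak in 5 libraries (1 sham, 1 at 10 min, 1 at 24 h and 2 at 72 h). Olfr691 had a peak in all 18 libraries and 20.5% ± 2.40. Vmn1r55 had none.

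The number of libraries with a peak was then counted for each region. A peak in all 18 libraries was found in 40 receptor regions (11.4%, 95% exact binomial interval 8.24% to 15.2%, which treats neighbouring regions as independent), and in 5.08% of autosomal regions. A single library had the peak in 29.0% of receptor regions and 29.2% of autosomal regions. The median was 5 libraries against 3, and the median width 1098 against 1072 bases. Counting a peak only where it covered at least 50% of the region, the shares in all 18 libraries were 5.11% and 1.95%. A merged region can reach beyond the gene windows: 273 of the 352 lay wholly inside them, and 34 had a peak within them in all 18 libraries. By family, 26 of 274 Olfr, 3 of 15 Vmn1r and 11 of 63 Vmn2r regions were in all 18. By position, 108 regions lay within a gene, 77 overlapped one end and 39 contained a gene; 36 lay upstream, 44 downstream and 48 beside a gene whose strand was not in the table.

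**Figure D5:**
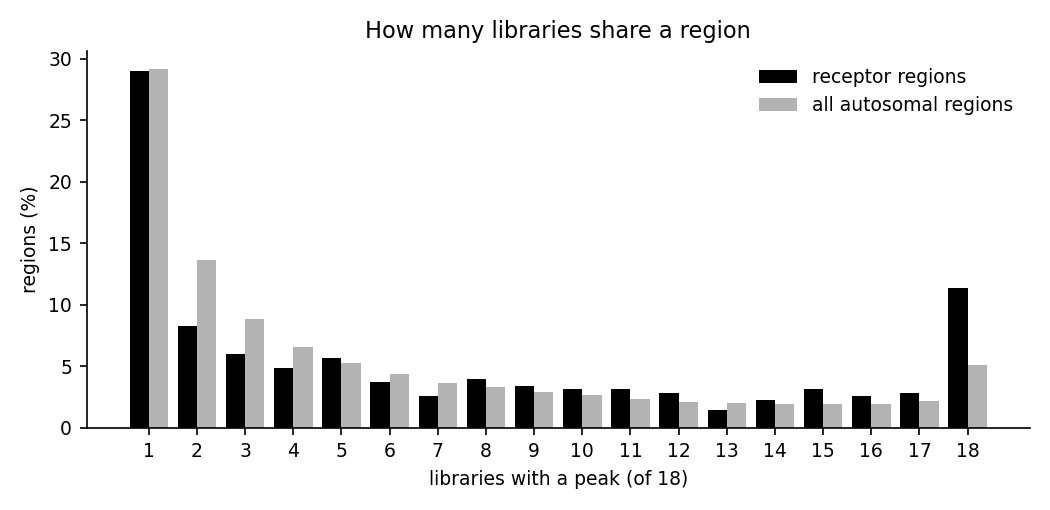
Share of merged regions (vertical axis, %) by the number of libraries with a peak (horizontal axis, of 18) for 352 receptor regions (black) and all autosomal regions (grey). The outer classes stand out: 29.0% and 29.2% of regions were in 1 library, and 11.4% and 5.08% in all 18.

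Of the 5 receptor regions with the highest mean score among those in all 18 libraries, 3 only reached into a gene window from outside, with most of their bases beyond it. The score is the authors' value for each peak and was read as 10 times the negative log10 of p. The region upstream of Vmn1r149 (chr7:22439812-22443337) scored from 200.2 through a median of 254 to 307.8, but 418 of its 3526 bases lay in the window and 10 libraries had a peak there. The region upstream of Olfr461 (chr6:40546736-40548301) scored 162 to 356 with a median of 247, and 242 of its 1566 bases lay in the window, with a peak there in 2 libraries. The region upstream of Vmn1r101 (chr7:20444224-20447717) had a median score of 204, 370 of its 3494 bases in the window and a peak there in 11 libraries. The regions within Vmn2r38 (chr7:9080580-9083525) and within Vmn1r14 (chr6:57229230-57230453) lay wholly inside the gene windows and had median scores of 169 and 171. The widest regions lay within Vmn2r35 (4242 bases, 16 libraries), within Vmn2r87 (3935 bases, 18 libraries) and downstream of Olfr1388 (3704 bases, 18 libraries).

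Receptor coverage was then compared between groups. Sham libraries had 0.889%, 0.973% and 1.01%. Libraries at 10 min had 0.873%, 0.922% and 1.08%, at 1 h 0.852%, 0.904% and 0.982%, and at 6 h 0.878%, 0.977% and 1.12%. Those at 24 h had 0.912%, 1.04% and 1.06%, and at 72 h 0.946%, 1.11% and 1.17%. Every MI group overlapped the sham range. The share of variance between groups was 0.300 (permutation p = 0.443, adjusted p = 0.590 over 4 sets), and 0.308 in Olfr, 0.367 in Vmn1r and 0.0987 in Vmn2r, with adjusted p between 0.590 and 0.923.

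Protein-coding coverage was higher in the longer peak lists, so receptor coverage was also divided by protein-coding coverage in the same library. This ratio was 0.343, 0.402 and 0.424 in sham. The 10 min libraries had ratios of 0.421 to 0.460 and the 1 h libraries 0.428 to 0.450. Ratios at 6 h were 0.438 to 0.480, those at 24 h 0.411 to 0.475 and those at 72 h 0.363 to 0.449. All libraries at 1 h and at 6 h lay above all sham libraries, while the other times overlapped sham. The share of variance between groups was 0.496 (permutation p = 0.0969, adjusted p = 0.303 over 4 sets). For Olfr, Vmn1r and Vmn2r the shares were 0.380, 0.419 and 0.361, each with an adjusted permutation p = 0.303. With 1 library left out, 17 of 18 Vmn1r runs gave the same call as all libraries. The exception, without 6 h replicate 2, had a share of 0.718 (permutation, adjusted p = 0.0468).

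Against the sham mean of 0.390, the 10 min group was higher by 0.0480 and the 1 h group by 0.0505. The 6 h group was higher by 0.0720, the 24 h group by 0.0548 and the 72 h group by 0.0135. In this order, exact permutation p was 0.2, 0.1, 0.1, 0.2 and 0.8, and adjusted p over 5 times was 0.25 for the first 4 and 0.8 at 72 h; 3 against 3 libraries cannot go below 0.1. For all 15 MI libraries against 3 sham libraries the difference was 0.0477 (two-sided exact permutation p = 0.0294, smallest possible 0.00123). Without sham replicate 2, which has the lowest ratio and 60130 peaks, the difference was 0.0243 (exact permutation p = 0.301). With each list cut to its 34255 best-scoring peaks, the length of the shortest list, it was 0.0284 (exact permutation p = 0.0723). Mean ratios were then 0.469 in sham, 0.483 at 10 min, 0.491 at 1 h and 0.490 at 6 h. At 24 h and 72 h they were 0.515 and 0.505. These 2 times then stood furthest above sham, so the order of the times was not the same under this setting.

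The ratio moved with the number of peaks in the list. Across the 18 libraries Pearson's r was -0.82 (permutation p = 4e-05, adjusted 0.00016 over 4 sets) and Spearman's rho was -0.74 (permutation p = 0.00059, adjusted 0.00118). Without the libraries with the most and the fewest peaks, 72 h replicate 2 and 6 h replicate 3, r was -0.81. Family values of r were -0.66 for Olfr, -0.69 for Vmn1r and -0.69 for Vmn2r. Sham lists held 44328 to 60130 peaks and those at 6 h 34255 to 50535; the part of list length in the group values was not tested beyond the equal-number comparison.

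Among the families, the Vmn2r ratio at 72 h (0.331, 0.338 and 0.352) was below every library of the earlier MI times but overlapped sham, which ran from 0.283 to 0.434. The Vmn1r ratio at 10 min (0.122 to 0.198) was above every library at 72 h (0.0925 to 0.114). Olfr ratios at 10 min and at 6 h were above all sham libraries. These contrasts were picked after the values were seen and carry no test. With equal numbers of peaks per list, the mean Vmn2r ratio at 72 h was 0.477, the highest of all groups. It was 0.460 in sham and 0.439 to 0.476 at the earlier MI times. Mean Olfr ratios were then 0.541 at 10 min and 0.553 at 6 h, against 0.534 in sham. For Vmn1r the means were 0.189 at 10 min and 0.0911 at 72 h, so that order was kept.

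For single regions, a gain was a peak in all 3 libraries of an MI time with none in the 3 sham libraries, and a loss was the reverse. At 10 min 2 of the 352 receptor regions were gained and 2 lost, with a background over all autosomal regions of 0.218% gained and 0.627% lost. At 1 h 2 were gained and 2 lost (background 0.223% and 0.55%), and at 6 h 1 and 1 (0.203% and 0.707%). At 24 h 2 were gained and 2 lost (0.394% and 0.524%), and at 72 h 3 and 3 (0.724% and 0.401%), or 0.852% of the receptor regions in each direction. For all MI libraries, a gain needed a peak in 12 or more of the 15 and none in sham, which 1 receptor region met (background 0.0378%), and 0 met the rule for lost (at most 3 of 15 and 3 of 3 sham, background 0.255%). Each count was 3 regions or fewer, too few to read a difference from the background.

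The region gained over all MI libraries lies downstream of Olfr951 (chr9:39395829-39397223). It had a peak in 0 sham libraries, 2 at 10 min and 3 at 1 h. At 6 h and at 24 h it was present in 2 libraries each and at 72 h in 3, with scores from 53.4 to 113. It was also the first gained region at 72 h, followed by regions overlapping Olfr1512 (chr14:52372311-52373315) and Olfr12 (chr1:92619832-92620795). Olfr1512 had a peak in 6 libraries and Olfr12 in 5, with median scores of 64.6 and 58.0. With the higher score and with equal numbers of peaks per list, it was no longer gained over all MI libraries. Using equal numbers, Olfr951 kept its 3 libraries at 72 h against 0 in sham, while Olfr1512 and Olfr12 had 0 and 1 at 72 h.

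The regions lost at 72 h lie within Olfr32, where they also overlap Olfr1270 (chr2:90148030-90149361), beside Olfr562-ps1 (chr7:102783648-102784702) and downstream of Olfr520 (chr7:99736732-99738542). The Olfr32 region had a peak in all 3 sham libraries, in 2 of 3 at each earlier MI time, and in 0 at 72 h. Its scores in sham were 76.9, 81.6 and 79.7. The Olfr562-ps1 and Olfr520 regions had a peak in 4 MI libraries each. The Olfr32 region was still lost at 72 h with the higher score and with equal numbers of peaks, when the others were not, and 0 of the 3 were lost with 50% overlap. None of the 15 Vmn1r regions was gained or lost; at the background shares given above, so few regions allow nothing to be read from this.

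Other genes of chemical sensing were read from lists. Of 20 genes for olfactory signalling and receptor choice, 18 had a peak in at least 1 library, where 82.8% of other protein-coding genes did, and the list was covered at 1.53% ± 0.352, with a median gene at 1.82% (1.92% over other protein-coding genes). A peak in all 18 libraries, found at 21.5% of other protein-coding genes, was found at 4 of the 20: Ebf1 (1.67%), a transcription factor of olfactory neurons, Adcy3 (2.39%), the adenylyl cyclase of olfactory signalling, Gnal (2.84%), its G protein alpha subunit, and Cnga4 (11.0%), a subunit of its cyclic nucleotide-gated channel. Lhx2, which binds olfactory receptor enhancers, had a peak in 2 libraries, and Kdm1a and Omp in 1 each.

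Of 67 other chemosensory receptor genes, 57 had no peak, against 17.2% of other protein-coding genes. Their median span was 984 bases, against 19554, so these shares too are not of equal windows. The list was covered at 1.87% ± 0.284, with a median gene at 0%. Other protein-coding genes were covered at 2.32% ± 0.330. All 40 Tas2r genes, the bitter taste receptors, and all 8 formyl peptide receptor genes (Fpr) had none in any library. Of 16 trace amine-associated receptor genes (Taar), 9 had none, while Taar2 (18.3% ± 3.36) and Taar3 (27.3% ± 2.81) had a peak in all 18 libraries. The 3 Tas1r genes, for sweet and umami taste, all had a peak in some libraries, and Tas1r2 (9.82% ± 2.51) in all 18. As families, Taar and Tas1r were covered at 5.44% ± 0.975 and 5.46% ± 1.49.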

How the data were processed

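MeDIP-seq was done on heart tissue of 18 mice. What was used are the authors' deposited peak lists, 1 per library, so peaks were called per library. Per the submitters' processing notes, Bowtie2 and MACS2 were used with build mm10; their roles, versions, options, any input library and the handling of reads with several alignments are not given in the sources used here. The last column of the deposited lists is a score with no stated scale; its minimum was 50 in every list and it was capped at 3100 in 16, and it was read as 10 × −log10 p, which puts the caller's p threshold at 1e-05. It served to rank, filter and describe peaks. No read counts were used, so no counting error can be given.

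Coverage and overlap were computed in Python 3.11.15 with numpy and pandas, with gene spans, biotypes and promoters of RefSeq GRCm38.p6, which shares its chromosomes with mm10. Positions are printed counted from 1. Coverage was compared within libraries by sign-flip permutation, over 6 groups by the share of variance between groups (100000 resamples each), and with sham by exact permutation, with Benjamini-Hochberg adjustment; all tests were two-sided except the share of variance, where larger shares count. The code was tested on simulated data. Groups and replicate numbers come from the sample titles. Alternatives were the score threshold, equal numbers of peaks, no flanks, protein-coding receptors only, a comparator without receptors, 50% overlap, each library left out, a smaller cluster gap and the replicate block; leaving out the clusters above protein-coding genes was chosen after seeing the data.

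Genes were named by rule: clusters of at least 10 genes (the 5 largest, 3 highest and 3 lowest in full), the 10 genes with highest coverage, the 5 highest-scoring regions in all 18 libraries, the 3 widest, the first 3 gained and lost at 72 h and for all MI, and 5 genes and 2 lists given whatever their values. The members, lists and rules were chosen with earlier results of these data known. Receptor genes on chromosome X (10) had no peak in any library and were left out.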

Additional observations from a re-analysis of the deposited data

How the results depend on the processing

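The difference of all receptors, Olfr, Vmn1r and Vmn2r from protein-coding genes kept its direction and passed the test under every alternative run; leaving out 1 library gave -1.34 to -1.29, -1.18 to -1.12, -2.05 to -1.97 and -1.45 to -1.40 percentage points. Leaving out 1 library gave 0.840 to 0.874, 0.268 to 0.293 and 0.562 to 0.594 for Olfr minus Vmn1r, Olfr minus Vmn2r and Vmn2r minus Vmn1r. With peaks at or above the median score, Olfr minus Vmn2r was 0.0524 and missed the threshold; the cause was not tested. The share of variance between groups, with 1 library left out, was 0.189 to 0.459 for all receptors, 0.187 to 0.501 for Olfr, 0.295 to 0.610 for Vmn1r and 0.0626 to 0.323 for Vmn2r; for the ratio it was 0.447 to 0.630, 0.282 to 0.552, 0.333 to 0.718 and 0.308 to 0.665. The ratio minus sham, from the shortest time to the longest, was 0.0246 to 0.0651, 0.0271 to 0.0677, 0.0485 to 0.0891, 0.0314 to 0.0719 and -0.00995 to 0.0336. At 72 h it turned negative without sham replicate 2 (-0.00995) and without 72 h replicate 3 (-0.00946). For all MI it was 0.0243 to 0.0649, and 0.0284 with equal numbers of peaks, which missed the threshold; the cause was not tested. Replicate numbers are shared between groups but nothing in the labels pairs them: over 31026 gene windows, deviations of same-numbered libraries correlated by 0.0100 on average (-0.0571 to 0.0817 over 45 pairs, 0 above 0.1), against -0.00499 for other numbers, and 11 of 18 libraries correlated best with their own number. With the replicate block, the variance share of the ratio was 0.632 (permutation p = 0.0546) and all MI minus sham 0.0477 (exact permutation p = 0.0231); the block changed no call. Regions in all 18 libraries were 19 of the 236 that kept a peak with the higher score (8.05%). With 50% overlap they were 18 of all 352 (5.11%). With the higher score 0 regions were gained for all MI and at each time but 72 h. With equal numbers of peaks gained regions, from the shortest time to the longest, were 1, 1, 2, 1 and 1, and 0 for all MI. With 50% overlap 1 was gained at 10 min. With the higher score the 10 min group had lost 1, the 6 h group 2 and the 24 h group 1. With equal numbers the 1 h group had lost 0, the 6 h group 2, the 24 h group 1 and all MI 1. With 50% overlap the 10 min group had lost 1, the 1 h group 4, the 24 h group 1 and the 72 h group 0. With 1 library left out, gained and lost counts were in the same order of times, 2 to 7 and 3 to 6, 3 to 5 and 2 to 7, 1 to 6 and 2 to 5, 2 to 8 and 2 to 6, and 4 to 7 and 3 to 5, and 0 to 2 and 0 to 3 for all MI; fewer libraries make the rule easier to meet. Of the named clusters, genes and regions, 21 moved by more than the spread between libraries with the higher score and 43 did not. With equal numbers of peaks 8 moved and 56 did not, without flanks 25 and 24, and with 50% overlap 6 and 9. For regions any change in the number of libraries counts. Only the gained and lost regions could change direction, and none of them did. Peak number limits what can be seen, since sequencing depth is not known.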
